A study of Homo sapiens with 12 samples.

Results

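The genes described here are the chemokines, the interleukins and their receptors, taken as every annotated gene symbol that begins with CXCL, CCL, CXCR, CCR or IL directly followed by a digit. The rule found 106 of the 14884 annotated gene symbols on the array, and each symbol is represented by its transcript cluster (the set of probes summarised for 1 transcript unit) with the highest mean over the 12 arrays. By role, they are 13 CXC chemokines, 23 CC chemokines, 6 CXC chemokine receptors, 8 CC chemokine receptors, 27 interleukins, 3 interleukin antagonists or binding proteins, and 21 interleukin receptor chains. Roles were read from the symbols, and the 23 include CCL15-CCL14, a symbol that joins the names of CCL15 and CCL14. The rule also takes in 3 non-coding transcripts named after neighbouring interleukin genes, the pseudogene CXCR2P1, and IL4I1, an amino acid oxidase named for its induction by interleukin 4. The symbol rule used no measured value. Family members that carry no symbol in the annotation used here, such as CXCL1, were not analysed here.

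RNA was measured in SNU601, MKN1 and AGS, established human gastric cancer cell lines grown in RPMI-1640 with fetal calf serum. Each line was exposed to Rhosin, to JK136, to JK139 or to the solvent DMSO, with 1 Affymetrix Human Gene 2.0 ST array for each of the 12 combinations, so each line has 4 arrays and each treatment 3. Rhosin blocks the GTPase RhoA. JK136 and JK139 appear in the labels by code name only, and the labels state neither doses nor exposure times. The series title names RhoA signalling in gastric cancer as the question. All groups are cultured cell lines, and each combination of line and treatment is 1 array. Values are log2 signals after RMA (robust multi-array average). Over all 53617 clusters the array medians were 4.14 to 4.20. Pearson's r over all clusters was 0.978 to 0.988 within a line and 0.927 to 0.960 between lines, and no pair of arrays held identical values. In bulk RNA, fewer cells carrying a transcript and less RNA per cell cannot be told apart. Precision is limited by how few arrays there are.

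Chemokines are small secreted proteins that guide leukocytes along gradients, and they act through receptors that span the membrane of the responding cell. Interleukins signal through receptor chains that recruit either JAK kinases and STAT factors, or, for the interleukin 1 and interleukin 17 families, adaptors that lead to NF-kB. Gastric epithelial cells are known producers of neutrophil-attracting chemokines such as CXCL8 during infection and inflammation, and cancer cells can also carry receptors such as CXCR4.

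The CXC chemokines that attract neutrophils lie side by side on chromosome 4, in the RefSeq order CXCL8, CXCL6, CXCL5, CXCL3 and CXCL2 among the members, and the interferon-inducible CXCL9, CXCL10 and CXCL11 form a neighbouring group. Their promoters are shown because these neighbours had unlike levels across the 3 lines. The sequences are the 250 bases before the annotated start in RefSeq (GRCh38.p14), printed 5′ to 3′ along each gene. The positions are chr4:73740319-73740568, plus strand for CXCL8, chr4:73998678-73998927, minus strand for CXCL5, chr4:74038690-74038939, minus strand for CXCL3, chr4:74099196-74099445, minus strand for CXCL2, chr4:76023498-76023747, minus strand for CXCL10 and chr4:76036071-76036320, minus strand for CXCL11. Capitals mark matches, on either strand, to an NF-kB-like pattern (GGNNNTTCC), an interferon-response-like pattern (GAAANNGAA) or an AP-1-like pattern (TGANTCA).
CXCL8: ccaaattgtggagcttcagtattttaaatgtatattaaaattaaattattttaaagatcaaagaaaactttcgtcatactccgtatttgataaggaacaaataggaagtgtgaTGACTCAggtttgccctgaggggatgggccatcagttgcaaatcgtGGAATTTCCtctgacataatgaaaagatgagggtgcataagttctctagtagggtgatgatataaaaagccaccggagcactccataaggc
CXCL5: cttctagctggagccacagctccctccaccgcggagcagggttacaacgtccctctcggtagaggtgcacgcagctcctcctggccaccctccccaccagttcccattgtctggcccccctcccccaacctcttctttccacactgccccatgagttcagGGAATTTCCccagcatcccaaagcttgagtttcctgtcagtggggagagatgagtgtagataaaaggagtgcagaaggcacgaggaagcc
CXCL3: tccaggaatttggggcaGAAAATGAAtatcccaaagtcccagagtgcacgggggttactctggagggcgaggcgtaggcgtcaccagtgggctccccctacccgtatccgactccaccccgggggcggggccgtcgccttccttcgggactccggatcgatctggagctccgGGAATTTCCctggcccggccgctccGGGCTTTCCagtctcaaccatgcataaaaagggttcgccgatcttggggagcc
CXCL2: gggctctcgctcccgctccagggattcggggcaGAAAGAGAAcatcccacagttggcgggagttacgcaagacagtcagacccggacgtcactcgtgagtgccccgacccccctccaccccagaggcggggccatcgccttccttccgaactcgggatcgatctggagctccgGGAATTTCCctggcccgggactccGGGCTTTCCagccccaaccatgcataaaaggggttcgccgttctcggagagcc
CXCL10: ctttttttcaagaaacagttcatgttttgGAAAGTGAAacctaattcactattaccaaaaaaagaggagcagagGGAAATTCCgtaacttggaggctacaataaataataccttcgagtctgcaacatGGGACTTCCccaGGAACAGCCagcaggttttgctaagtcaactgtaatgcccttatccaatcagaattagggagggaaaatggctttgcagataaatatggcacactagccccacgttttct
CXCL11: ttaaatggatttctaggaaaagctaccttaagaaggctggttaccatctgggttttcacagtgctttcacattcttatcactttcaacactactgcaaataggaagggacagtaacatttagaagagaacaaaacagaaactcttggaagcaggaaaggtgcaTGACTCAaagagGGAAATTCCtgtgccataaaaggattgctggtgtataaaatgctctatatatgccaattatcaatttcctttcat

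The same 9 letters, GGAATTTCC, stood at -91 to -83 before CXCL8, -89 to -81 before CXCL6, -90 to -82 before CXCL5, -78 to -70 before CXCL3 and -77 to -69 before CXCL2, counting the base before the start as -1. CXCL3 and CXCL2 also shared GGGCTTTCC at -53 to -45. CXCL10 and CXCL11 carried GGAAATTCC, at -176 to -168 and -75 to -67. TGACTCA was found before CXCL8 at -137 to -131 and before CXCL11 at -87 to -81. The NF-kB-like pattern occurred in 22 of the 80 members with a promoter in the table (27.5%), against 17.1% of all 27305 promoters of the same length. The interferon-response-like pattern occurred in 14 of the 80 (17.5%), against 7.06% of all promoters, and the AP-1-like pattern in 13 (16.2%), against 6.60%. A match describes the letters only. GGAATTTCC and GGAAATTCC are each other's reverse complement and match the NF-kB-like pattern on both strands, GGGCTTTCC on 1 strand.

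Most of these genes were near or under background in all 3 lines. A line mean of 4.6 on the log2 scale was taken as the background level. Of the 4 endothelial markers measured, 1 also reached it in every line: CLDN5, with 5.42 in SNU601, 5.35 in MKN1 and 5.53 in AGS. A mean a little above 4.6 therefore does not by itself show expression. Of the 106 members, 37 reached 4.6 in at least 1 line (34.9%, against 65.7% of all symbols) and 69 in none. In SNU601 29 members reached it (27.4%, with 58% of all symbols as background), in MKN1 31 (29.2%, background 60.6%) and in AGS 27 (25.5%, background 58.5%). The level was reached in all 3 lines by 23 members (21.7%, against 52.9% of all symbols) and on all 12 arrays by 19 (17.9%, against 48.3%). IL1RN, CXCL8 and CXCL17 reached it in SNU601 only (2.83% of members, against 1.25% of all symbols). CXCL14, IL7R, CCL28, CCL2 and IL7 did so in MKN1 only (4.72%, against 4.39%), and CXCL11 and IL9R in AGS only (1.89%, against 1.38%). CXCL5 and CXCR4 reached it in SNU601 and MKN1 (1.89%, against 1.55%). CCL19 did so in SNU601 and AGS (0.943%, against 2.38%), and IL17RD in MKN1 and AGS (0.943%, against 1.83%). By role, 7 of 13 CXC chemokines, 6 of 23 CC chemokines, 1 of 6 CXC receptors, 1 of 8 CC receptors, 7 of 27 interleukins, 2 of 3 antagonists and 12 of 21 interleukin receptor chains reached it in a line. Just at or above the level, by highest line mean, were CXCL11 at 4.75, IL7 at 4.70 and IL9R at 4.65, and just under it CCL4 at 4.59, CCL27 at 4.55 and IL1RAPL1 at 4.53. IL9R, the alpha chain of the interleukin 9 receptor, had line means of 4.57 in SNU601, 4.45 in MKN1 and 4.65 in AGS and passed the test in no line comparison.

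**Figure D1:**
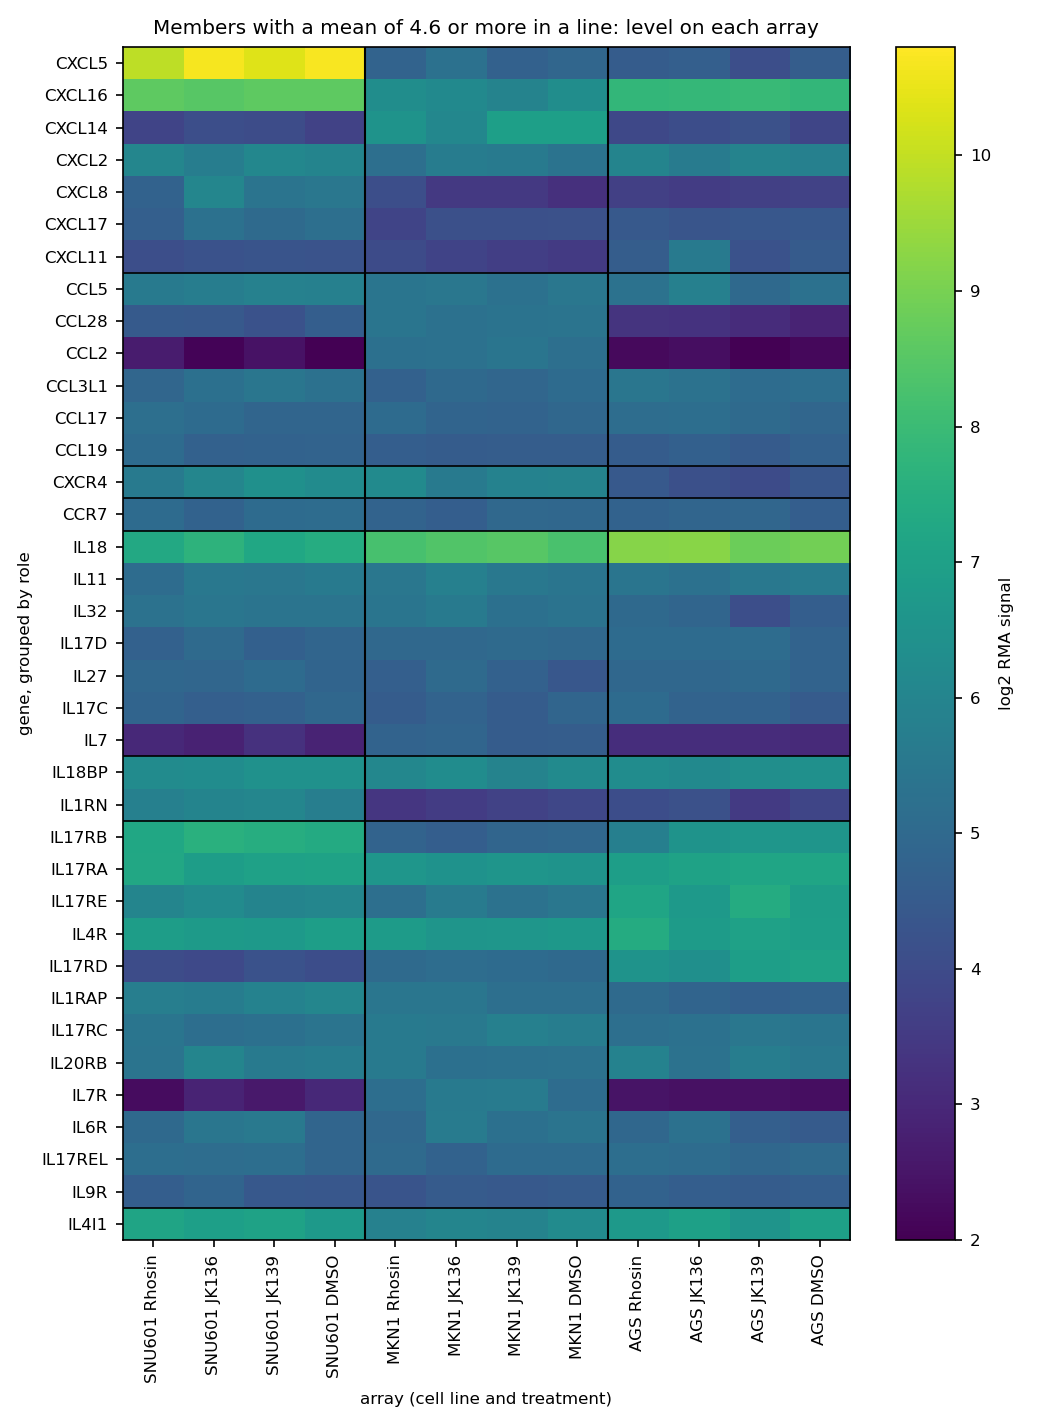
Log2 RMA signal of the 37 members with a line mean of 4.6 or more in at least 1 line, as a colour map with 1 row per gene, grouped by role, and 1 column for each of the 12 arrays. CXCL5 in SNU601 stands highest, at 9.91 to 10.71 on its 4 arrays, and CCL2, IL7R and CXCL14 are dark outside MKN1.

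Lines were compared with limma over all 14884 symbols with treatment as a second term, so the 4 treatments, matched between lines, are the replicates of a line, and the p-values measure the spread between arrays of 1 line. Differences are given as log2 differences with the standard error (SE), levels as means with the SD over 4 arrays, and a difference was called at a Benjamini-Hochberg adjusted p under 0.05. In MKN1 against AGS, 17 members were higher and 20 lower (16.0% and 18.9% of 106), against a background of 26.8% higher and 21.6% lower among all symbols. In SNU601 against AGS, 14 were higher and 8 lower (13.2% and 7.55%), against a background of 19.4% and 15.5%. In SNU601 against MKN1, 16 were higher and 12 lower (15.1% and 11.3%), against a background of 22% and 24.4%. In each of these comparisons the members' share of calls in each direction was below the background share. That background was not matched for level: 34.9% of the members reached 4.6 in a line, against 65.7% of all symbols. Among the called members, 14, 7 and 8 lay under 4.6 in every line, in that order of comparisons. The median difference of the members was -0.047, 0.028 and 0.096, against -0.0041, 0.029 and 0.028 over all symbols, in the same order of comparisons. Array medians over all symbols were higher in MKN1 than in AGS by 0.101, and SNU601 against MKN1 gave -0.11. The median differences over all symbols just given for these comparisons, -0.0041 and 0.028, were smaller in size. The differences below were not corrected for either. The calls of CCL3L1, CXCL17, CXCL2 and IL6R in MKN1 against AGS, of CCL5 and CXCL11 in SNU601 against AGS, and of CCL5 in SNU601 against MKN1 were lost under some alternatives, among them leaving out single arrays or another scaling.

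**Figure D2:**
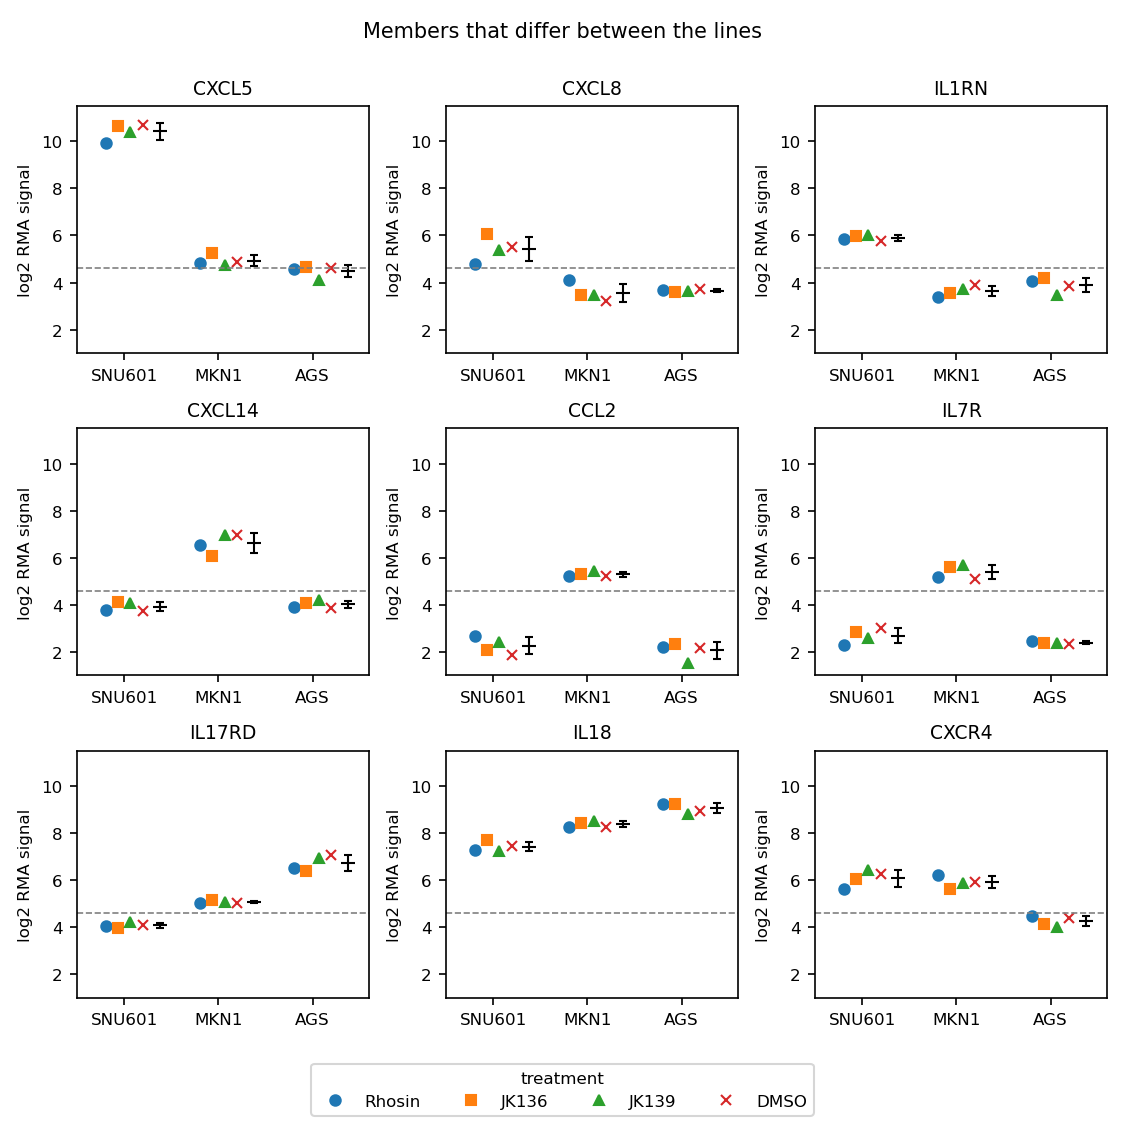
Log2 RMA signal by line for 9 members with large differences between lines, with 1 point per array by treatment and the mean ± SD over 4 arrays. CXCL5, CXCL8 and IL1RN are high in SNU601, CCL2, CXCL14 and IL7R in MKN1, and IL17RD and IL18 in AGS, each with arrays that do not overlap those of the other lines. CXCR4 is low in AGS; the dashed line marks 4.6.

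Among the CXC chemokines, CXCL5, a neutrophil attractant that acts through CXCR2, showed the widest contrast between lines. In the per-array values that follow, the order within a line is Rhosin, JK136, JK139 and DMSO. CXCL5 had 9.91, 10.67, 10.38 and 10.71 in SNU601, 4.82, 5.27, 4.75 and 4.89 in MKN1, and 4.57, 4.66, 4.10 and 4.599 in AGS. All SNU601 arrays lay more than 4 log2 units above every array of the other lines, and 9 of the 12 arrays reached 4.6. The mean was 10.42 ± 0.37 in SNU601, 4.93 ± 0.23 in MKN1 and 4.48 ± 0.26 in AGS. The log2 difference was 5.94 ± 0.13 (adjusted p = 6.08e-14) for SNU601 against AGS and 5.49 ± 0.13 (adjusted p = 4.29e-14) for SNU601 against MKN1. CXCL8, interleukin 8, also a neutrophil attractant, had 4.78, 6.05, 5.38 and 5.50 in SNU601, 4.11, 3.48, 3.47 and 3.22 in MKN1, and 3.68, 3.58, 3.66 and 3.72 in AGS. It was higher in SNU601 than in the other lines without overlap, with a log2 difference of 1.77 ± 0.23 (adjusted p = 1.52e-05) against AGS and 1.86 ± 0.23 (adjusted p = 5.08e-06) against MKN1. CXCL2, likewise a ligand of CXCR2, had 6.04, 5.71, 6.08 and 5.99 in SNU601, 5.22, 5.70, 5.64 and 5.36 in MKN1, and 5.96, 5.65, 5.94 and 5.84 in AGS. Unlike its neighbours it was above background in every line, and its line differences were small, at 0.48 ± 0.12 (adjusted p = 0.00408) for SNU601 against MKN1 and -0.37 ± 0.12 (adjusted p = 0.02) for MKN1 against AGS. CXCL3, whose sequence is close to that of CXCL2 so that shared probes could mix their signals, stayed under 4.6 with line means of 4.15 in SNU601, 2.79 in MKN1 and 3.95 in AGS. It was lower in MKN1, with a log2 difference of -1.16 ± 0.14 (adjusted p = 4.17e-06) against AGS, and CXCL6 had line means of 2.98 in SNU601, 2.998 in MKN1 and 3.11 in AGS.

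**Figure D3:**
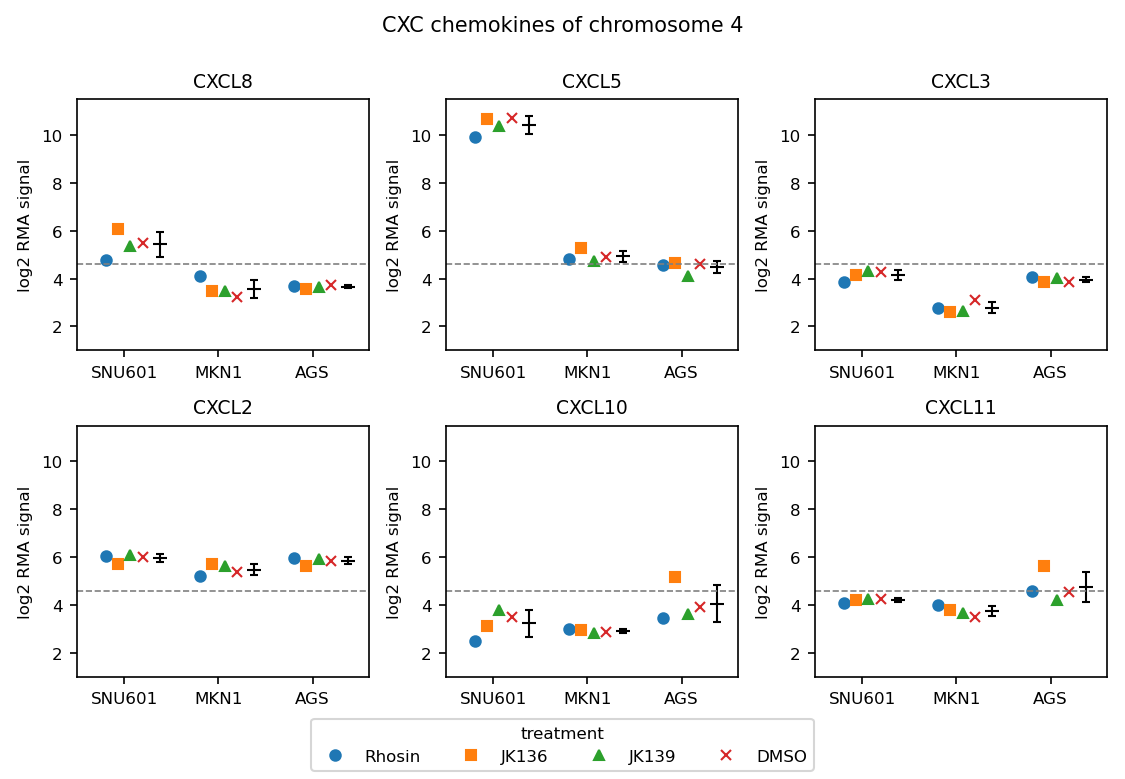
Log2 RMA signal of 6 CXC chemokines of chromosome 4 in SNU601, MKN1 and AGS, with 1 point per array by treatment, black marks for the mean ± SD over 4 arrays, and a dashed line at 4.6. CXCL5 and CXCL8 are highest in SNU601, CXCL2 is near 5.5 to 6 in every line, and CXCL10 and CXCL11 have their highest array in AGS with JK136.

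CXCL16, a membrane-anchored ligand of CXCR6, had 8.62, 8.53, 8.63 and 8.63 in SNU601, 6.31, 6.19, 5.93 and 6.33 in MKN1, and 7.82, 7.87, 7.93 and 7.84 in AGS. The 3 lines did not overlap: it was highest in SNU601, with a log2 difference of 2.41 ± 0.084 (adjusted p = 3.65e-12) against MKN1 and 0.73 ± 0.084 (adjusted p = 4.59e-06) against AGS. CXCL14, a chemokine of resting epithelia, had 3.79, 4.10, 4.06 and 3.75 in SNU601, 6.52, 6.06, 6.95 and 6.95 in MKN1, and 3.92, 4.09, 4.20 and 3.85 in AGS. It was above background in MKN1 alone, with a log2 difference of 2.61 ± 0.16 (adjusted p = 3.1e-09) for MKN1 against AGS and -2.70 ± 0.16 (adjusted p = 2.21e-09) for SNU601 against MKN1. CXCL17, a chemokine of mucosal surfaces, had line means of 5.04 in SNU601, 4.07 in MKN1 and 4.40 in AGS. SNU601 was higher than MKN1 by 0.97 ± 0.13 (adjusted p = 9.17e-06) and higher than AGS by 0.64 ± 0.13 (adjusted p = 0.000753). The interferon-inducible CXCL11, a ligand of CXCR3, had 4.10, 4.20, 4.27 and 4.25 in SNU601, 3.998, 3.79, 3.65 and 3.51 in MKN1, and 4.59, 5.64, 4.21 and 4.54 in AGS. Its AGS mean passed 4.6 through the JK136 array, and AGS with DMSO was under it. MKN1 was lower than AGS, with a log2 difference of -1.01 ± 0.20 (adjusted p = 0.000551), and SNU601 against AGS gave -0.54 ± 0.20 (adjusted p = 0.0498). CXCL10, its neighbour and also a CXCR3 ligand, had 2.51, 3.13, 3.78 and 3.50 in SNU601, 2.99, 2.96, 2.83 and 2.89 in MKN1, and 3.47, 5.18, 3.64 and 3.92 in AGS, with line means under 4.6 and a log2 difference of -1.13 ± 0.27 (adjusted p = 0.00268) for MKN1 against AGS.

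Among the CC chemokines, CCL2, which attracts monocytes through CCR2, had 2.67, 2.10, 2.43 and 1.87 in SNU601, 5.24, 5.30, 5.43 and 5.22 in MKN1, and 2.22, 2.32, 1.52 and 2.18 in AGS. It was present above background in MKN1 alone, with a log2 difference of 3.23 ± 0.19 (adjusted p = 1.12e-09) for MKN1 against AGS and -3.03 ± 0.19 (adjusted p = 2.58e-09) for SNU601 against MKN1. CCL28, a mucosal chemokine that acts through CCR10 and CCR3, differed between all 3 lines, with means of 4.45 in SNU601, 5.37 in MKN1 and 3.15 in AGS. Its log2 difference was 2.22 ± 0.13 (adjusted p = 1.27e-09) for MKN1 against AGS, 1.30 ± 0.13 (adjusted p = 1.14e-06) for SNU601 against AGS and -0.92 ± 0.13 (adjusted p = 2.35e-05) for SNU601 against MKN1. CCL5, an attractant of T cells and monocytes, had 5.63, 5.74, 5.86 and 5.82 in SNU601, 5.41, 5.47, 5.28 and 5.50 in MKN1, and 5.31, 5.85, 5.02 and 5.30 in AGS. Its differences were smaller, at 0.40 ± 0.13 (adjusted p = 0.0255) for SNU601 against AGS and 0.35 ± 0.13 (adjusted p = 0.0381) for SNU601 against MKN1. CCL3L1, a near-identical copy of CCL3 whose number varies between genomes, had means of 5.22 in SNU601, 4.92 in MKN1 and 5.26 in AGS. The CCL3 cluster had 3.89 in SNU601, 3.96 in MKN1 and 3.91 in AGS, and RNA of either copy could bind both probe sets. CCL17, a ligand of CCR4, had means of 5.01 in SNU601, 4.91 in MKN1 and 5.07 in AGS. CCL19, a ligand of CCR7, had 4.85 in SNU601, 4.59 in MKN1 and 4.63 in AGS. No line comparison of either passed the test. CCL20, a ligand of CCR6, stayed under 4.6 with means of 4.33 in SNU601, 2.94 in MKN1 and 2.79 in AGS and was higher in SNU601 by 1.54 ± 0.21 (adjusted p = 2.54e-05) against AGS.

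Of the 14 chemokine receptors, CXCR4 and CCR7 reached 4.6 in a line. CXCR4, the receptor of CXCL12, had 5.60, 6.02, 6.43 and 6.25 in SNU601, 6.21, 5.63, 5.89 and 5.93 in MKN1, and 4.45, 4.14, 4.004 and 4.37 in AGS. The AGS arrays lay under those of both other lines, with a log2 difference of 1.84 ± 0.17 (adjusted p = 4.14e-07) for SNU601 against AGS and 1.67 ± 0.17 (adjusted p = 5.21e-07) for MKN1 against AGS. Its ligand CXCL12 was under 4.6 everywhere, with means of 3.90 in SNU601, 4.07 in MKN1 and 3.68 in AGS. CCR7, a receptor known for homing to lymph nodes, had means of 5.01 in SNU601, 4.84 in MKN1 and 4.80 in AGS and passed the test in no line comparison. These means lay under those of the endothelial marker CLDN5 in each line, so they do not by themselves show expression. Other chemokine receptors were under 4.6 in every line, with CXCR2 at most 3.40, CXCR1 at most 3.23, CXCR6 at most 3.46, CCR2 at most 2.71 and CCR10 at most 3.69 as a line mean. CXCR3 was closest to the level, with a highest line mean of 4.48.

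Among the interleukins, IL18, an interleukin 1 family cytokine that epithelial cells store as a precursor, had 7.29, 7.70, 7.24 and 7.44 in SNU601, 8.24, 8.41, 8.52 and 8.27 in MKN1, and 9.21, 9.23, 8.81 and 8.93 in AGS. The lines did not overlap, and the log2 difference was -1.63 ± 0.098 (adjusted p = 4.99e-09) for SNU601 against AGS, -0.69 ± 0.098 (adjusted p = 2.34e-05) for MKN1 against AGS and -0.94 ± 0.098 (adjusted p = 8.75e-07) for SNU601 against MKN1. IL18BP, the secreted protein that binds interleukin 18, had 6.23, 6.26, 6.45 and 6.46 in SNU601, 6.08, 6.28, 5.94 and 6.22 in MKN1, and 6.29, 6.17, 6.33 and 6.41 in AGS. Its lines overlapped, with no comparison past the test. The receptor chains of interleukin 18 were under 4.6, with means of 4.39 in SNU601, 3.89 in MKN1 and 3.93 in AGS for IL18R1 and 3.19 in SNU601, 3.12 in MKN1 and 2.73 in AGS for IL18RAP. IL1RN, the antagonist that blocks the interleukin 1 receptor, had 5.84, 5.97, 6.03 and 5.77 in SNU601, 3.38, 3.57, 3.74 and 3.88 in MKN1, and 4.07, 4.19, 3.49 and 3.85 in AGS. It was above background in SNU601 alone, with a log2 difference of 2.005 ± 0.16 (adjusted p = 9.69e-08) against AGS and 2.26 ± 0.16 (adjusted p = 1.02e-08) against MKN1. IL11, a cytokine of the interleukin 6 family, had 5.13, 5.52, 5.50 and 5.61 in SNU601, 5.50, 5.83, 5.52 and 5.44 in MKN1, and 5.43, 5.27, 5.51 and 5.66 in AGS, with overlapping lines and no call. IL32, a proinflammatory interleukin, had means of 5.39 in SNU601, 5.40 in MKN1 and 4.65 in AGS. AGS was lower than both other lines, with a log2 difference of 0.75 ± 0.13 (adjusted p = 0.000189) for MKN1 against AGS and 0.74 ± 0.13 (adjusted p = 0.000364) for SNU601 against AGS. IL7, a lymphocyte growth factor, had means of 2.99 in SNU601, 4.70 in MKN1 and 3.12 in AGS. It was higher in MKN1 by 1.58 ± 0.13 (adjusted p = 6.65e-08) against AGS, and SNU601 against MKN1 gave -1.71 ± 0.13 (adjusted p = 3.01e-08). IL17C, an epithelial interleukin 17, had means of 4.79 in SNU601, 4.69 in MKN1 and 4.79 in AGS. IL17D had 4.83 in SNU601, 4.99 in MKN1 and 5.02 in AGS. IL27, the p28 subunit of interleukin 27, had 4.94 in SNU601, 4.70 in MKN1 and 4.92 in AGS. None of the 3 passed the test between lines.

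The receptor chains of the interleukin 17 family included 6 chains above background in at least 1 line. IL17RA, the chain shared by the family's receptors, had 7.27, 6.91, 7.02 and 7.06 in SNU601, 6.61, 6.49, 6.59 and 6.52 in MKN1, and 6.95, 7.08, 7.19 and 7.19 in AGS. It was lower in MKN1, with a log2 difference of -0.55 ± 0.088 (adjusted p = 8.05e-05) against AGS, and SNU601 against MKN1 gave 0.51 ± 0.088 (adjusted p = 0.000157). IL17RB, which binds interleukin 17B and interleukin 25, had 7.24, 7.57, 7.48 and 7.37 in SNU601, 4.80, 4.62, 4.87 and 4.92 in MKN1, and 5.79, 6.52, 6.61 and 6.58 in AGS. The 3 lines did not overlap, with a log2 difference of 2.61 ± 0.13 (adjusted p = 1.67e-10) for SNU601 against MKN1, 1.04 ± 0.13 (adjusted p = 8.83e-06) for SNU601 against AGS and -1.57 ± 0.13 (adjusted p = 5.05e-08) for MKN1 against AGS. IL17RC, which pairs with IL17RA for interleukins 17A and 17F, had 5.40, 5.17, 5.24 and 5.39 in SNU601, 5.63, 5.57, 5.83 and 5.74 in MKN1, and 5.22, 5.28, 5.48 and 5.41 in AGS. Its order was the reverse, with MKN1 higher than AGS by 0.35 ± 0.097 (adjusted p = 0.00777) and SNU601 against MKN1 at -0.39 ± 0.097 (adjusted p = 0.0035). IL17RD, also known as an inhibitor of fibroblast growth factor signalling, had 4.05, 3.95, 4.20 and 4.09 in SNU601, 5.04, 5.13, 5.06 and 5.01 in MKN1, and 6.53, 6.38, 6.92 and 7.06 in AGS. It was highest in AGS and under background in SNU601, with a log2 difference of -2.65 ± 0.12 (adjusted p = 3.23e-10) for SNU601 against AGS, -1.66 ± 0.12 (adjusted p = 2.04e-08) for MKN1 against AGS and -0.99 ± 0.12 (adjusted p = 6.59e-06) for SNU601 against MKN1. IL17RE, the receptor of interleukin 17C, had 5.998, 6.24, 5.98 and 6.05 in SNU601, 5.23, 5.67, 5.30 and 5.50 in MKN1, and 7.19, 6.78, 7.41 and 6.90 in AGS. AGS was again highest, with a log2 difference of -1.64 ± 0.14 (adjusted p = 8e-08) for MKN1 against AGS, -1.002 ± 0.14 (adjusted p = 3.09e-05) for SNU601 against AGS and 0.64 ± 0.14 (adjusted p = 0.00111) for SNU601 against MKN1. IL17REL, a gene with sequence like IL17RE, had means of 5.10 in SNU601, 4.995 in MKN1 and 5.06 in AGS with no call. Of the ligands, IL17A, IL17F, IL17B and IL25 were under 4.6 in every line, with highest line means of 2.89, 3.29, 4.44 and 4.04.

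Among the other receptor chains, IL4R, the chain that binds interleukin 4, had 6.89, 6.79, 6.72 and 6.95 in SNU601, 6.84, 6.59, 6.62 and 6.69 in MKN1, and 7.40, 6.82, 7.02 and 6.92 in AGS. Its lines lay close together, and MKN1 against AGS gave -0.36 ± 0.089 (adjusted p = 0.00333), while SNU601 against AGS gave -0.21 ± 0.089 (adjusted p = 0.0884) and did not pass. IL1RAP, the co-receptor of interleukin 1 and interleukin 33, had 5.75, 5.69, 5.89 and 6.03 in SNU601, 5.45, 5.47, 5.22 and 5.21 in MKN1, and 5.05, 4.84, 4.69 and 4.77 in AGS. It differed in all 3 comparisons, with a log2 difference of 1.005 ± 0.12 (adjusted p = 5.32e-06) for SNU601 against AGS, 0.51 ± 0.12 (adjusted p = 0.00187) for SNU601 against MKN1 and 0.50 ± 0.12 (adjusted p = 0.00201) for MKN1 against AGS. IL20RB, a chain of the receptors for interleukins 19, 20 and 24, had 5.38, 5.99, 5.59 and 5.71 in SNU601, 5.58, 5.26, 5.27 and 5.30 in MKN1, and 5.92, 5.32, 5.72 and 5.54 in AGS with no call. IL7R, the alpha chain of the interleukin 7 receptor, had 2.3, 2.86, 2.59 and 2.999 in SNU601, 5.17, 5.62, 5.67 and 5.11 in MKN1, and 2.45, 2.39, 2.40 and 2.33 in AGS. It was above background in MKN1 alone, the line in which IL7 was also highest, with a log2 difference of 3.001 ± 0.16 (adjusted p = 4.47e-10) for MKN1 against AGS and -2.71 ± 0.16 (adjusted p = 1.57e-09) for SNU601 against MKN1. IL6R, the chain that binds interleukin 6, had 5.01, 5.45, 5.55 and 4.86 in SNU601, 4.98, 5.65, 5.25 and 5.38 in MKN1, and 4.94, 5.28, 4.67 and 4.53 in AGS. MKN1 against AGS gave 0.46 ± 0.14 (adjusted p = 0.0149). IL4I1, the oxidase, had 7.14, 6.97, 7.09 and 6.74 in SNU601, 5.88, 6.0, 5.95 and 6.25 in MKN1, and 6.72, 7.01, 6.56 and 7.01 in AGS. It was lower in MKN1, with a log2 difference of -0.80 ± 0.12 (adjusted p = 4.2e-05) against AGS and 0.96 ± 0.12 (adjusted p = 7.14e-06) for SNU601 against MKN1. Among members under 4.6 in every line, IL1RAPL1, a synaptic relative of the interleukin 1 receptors, had a mean of 4.53 ± 0.24 in MKN1 and 2.27 ± 0.15 in AGS. Its log2 difference was 2.27 ± 0.14 (adjusted p = 2.32e-09) for MKN1 against AGS.

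The 69 members under 4.6 in every line included the T cell cytokines IL2, IL4, IL17A, IL21, IL22 and IL31, the alarmin IL33, and 12 of the 14 chemokine receptors. Of these 69, 7 members had at least 1 array at 4.6 or more: CCL4, CCL27, IL1RAPL1, CCL22, CXCR3, CCL20 and CXCL10. For CXCL10 that array was AGS with JK136, at 5.18.

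Lists of related genes were read from the same fit. Of the NF-kB list, 12 of 21 genes were on the array with a symbol. Of these, 7 were higher and 2 lower in MKN1 than in AGS, 5 higher and 1 lower in SNU601 than in AGS, and 2 higher and 4 lower in SNU601 than in MKN1. In either direction that is 75%, 50% and 50% of the list, against 48.4%, 34.9% and 46.4% of all symbols. The list's median difference was 0.36, 0.28 and -0.055, in that order of comparisons. The shares of all symbols were not matched for level. In each line 11 of the 12 NF-kB genes reached 4.6, against 58% to 60.6% of all symbols. The same limit holds for the adaptor and JAK-STAT lists that follow. In SNU601, MKN1 and AGS, 11, 12 and 11 of the 12 adaptors and 9, 8 and 8 of the 12 JAK-STAT genes reached 4.6. RELA, a DNA-binding subunit of NF-kB, gave a log2 difference of 1.12 ± 0.104 (adjusted p = 2.54e-07) for MKN1 against AGS, and MAP3K14, the kinase of the non-canonical branch, -1.02 ± 0.098 (adjusted p = 3.7e-07) for SNU601 against MKN1. Of the adaptors of interleukin 1 and Toll-like receptors, 12 of 14 were measured. Of these, 4 were higher and 2 lower in MKN1 than in AGS, 3 higher and 1 lower in SNU601 than in AGS, and 6 higher and 3 lower in SNU601 than in MKN1. In either direction that is 50%, 33.3% and 75% of the list, against 48.4%, 34.9% and 46.4% of all symbols. The list's median difference was 0.17, 0.093 and 0.101. IRAK3, an inhibitory member of the kinase family, gave 2.49 ± 0.15 (adjusted p = 1.56e-09) for MKN1 against AGS, IRAK2, an activating member, 1.47 ± 0.103 (adjusted p = 2.51e-08) for SNU601 against AGS, and PELI2, a ubiquitin ligase of the pathway, -1.58 ± 0.103 (adjusted p = 4.99e-09) for MKN1 against AGS. Of the JAK-STAT list, 12 of 18 were measured. Of these, 5 were higher and 3 lower in MKN1 than in AGS, 3 and 3 in SNU601 against AGS, and 3 and 4 in SNU601 against MKN1. In either direction that is 66.7%, 50% and 58.3% of the list, beside those same shares of all symbols. The list's median difference was 0.087, -0.040 and -0.20. STAT5A, a factor downstream of receptors such as IL7R, gave 1.76 ± 0.14 (adjusted p = 3.46e-08) for MKN1 against AGS, STAT3, a factor downstream of interleukin 6 family receptors, 1.28 ± 0.067 (adjusted p = 4.22e-10), and SOCS2, a feedback inhibitor, -1.78 ± 0.16 (adjusted p = 1.57e-07).

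Of the 33 related cytokines and receptors outside the symbol rule, 23 were measured. Of these, 6 were higher and 2 lower in MKN1 than in AGS, 1 higher and 2 lower in SNU601 than in AGS, and 3 higher and 6 lower in SNU601 than in MKN1. In either direction that is 34.8%, 13% and 39.1% of the list, against 48.4%, 34.9% and 46.4% of all symbols. The list's median difference was 0.060, 0.0084 and -0.096, in that order. ACKR3, an atypical receptor that also binds CXCL12, gave 2.86 ± 0.11 (adjusted p = 1.06e-11) for MKN1 against AGS, and CSF1, the macrophage growth factor, 1.62 ± 0.097 (adjusted p = 1.69e-09). LIF, a cytokine of the interleukin 6 family, gave -1.51 ± 0.11 (adjusted p = 1.85e-08) for MKN1 against AGS, and its receptor LIFR -2.23 ± 0.14 (adjusted p = 2.65e-09) for SNU601 against MKN1.

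As a check of the labelled cell type, 6 of 7 epithelial markers were measured and all 6 were at 4.6 or more in every line. Their summed signal, on the linear scale, was 4325 to 4617 in SNU601, 2761 to 3047 in MKN1 and 2965 to 3247 in AGS. EPCAM, an epithelial adhesion protein, was lower in MKN1, with means of 10.19 in SNU601, 6.49 in MKN1 and 10.04 in AGS. CLDN7 was lower there too, with means of 10.03 in SNU601, 6.06 in MKN1 and 9.63 in AGS. CLDN4 had 5.47 in SNU601, 5.07 in MKN1 and 5.40 in AGS. For MKN1 against AGS the log2 difference was -3.57 ± 0.096 (adjusted p = 2.44e-13) for CLDN7 and -0.33 ± 0.12 (adjusted p = 0.0296) for CLDN4. The keratins of simple epithelia had their highest means in MKN1, with 6.44 in SNU601, 6.55 in MKN1 and 6.16 in AGS for KRT8, 10.50 in SNU601, 10.75 in MKN1 and 9.63 in AGS for KRT18 and 9.33 in SNU601, 9.72 in MKN1 and 8.27 in AGS for KRT19. Their log2 difference for MKN1 against AGS was 0.40 ± 0.101 (adjusted p = 0.00379), 1.11 ± 0.066 (adjusted p = 1.53e-09) and 1.46 ± 0.091 (adjusted p = 3.01e-09). Of 12 leukocyte markers 5 were measured. Their summed signal was 3710 to 4260 in SNU601, 422 to 580 in MKN1 and 1291 to 2549 in AGS, led in SNU601 and AGS by LYZ, the lysozyme gene that gastric glands also express, with means of 11.84 in SNU601, 3.74 in MKN1 and 10.83 in AGS. In MKN1 it was led by CD68, a lysosomal protein, with means of 8.33 in SNU601, 8.65 in MKN1 and 6.14 in AGS. CD14 had means of 3.46 in SNU601, 4.67 in MKN1 and 3.33 in AGS. CD2 had 4.55 in SNU601, 4.64 in MKN1 and 4.58 in AGS, and CSF1R 4.80 in SNU601, 4.57 in MKN1 and 4.68 in AGS. Of 8 fibroblast markers 3 were measured, with sums of 34.6 to 40.5 in SNU601, 317 to 556 in MKN1 and 32.9 to 39.4 in AGS. LUM, a matrix proteoglycan, at 8.76 in MKN1 set the MKN1 sum while DCN stayed at 1.96 there. Of 6 endothelial markers 4 were measured, with sums of 71.5 to 87.0 in SNU601, 70.5 to 84.2 in MKN1 and 75.1 to 95.7 in AGS. The part of LUM, the lower EPCAM, CLDN7 and CLDN4, and the higher keratins in the MKN1 differences of CCL2, IL7R and CXCL14 was not tested.

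No chemokine, interleukin or receptor passed the test with any compound. Rhosin against DMSO, JK136 against DMSO and JK139 against DMSO called 0 of the 106 members each, with a background of 0%, 0.00672% and 0% of all symbols, the 1 called gene of JK136 being no member. Without adjustment, 2, 4 and 4 members had a p under 0.05 (1.89%, 3.77% and 3.77%), against 6.12%, 5.16% and 2.88% of all symbols. The members' median difference was 0.020, 0.011 and -0.0092, against 0.001, -0.010 and -0.0072 over all symbols. The 3 lines are the replicates of a treatment in this fit, and the 3 contrasts share their DMSO arrays. Among the 37 members at 4.6 or more in a line, the difference from DMSO had 1 sign in all 3 lines for 8 members with Rhosin (21.6%, background 26.1%), 11 with JK136 (29.7%, background 26.5%) and 7 with JK139 (18.9%, background 23.9%), where the background is the same share among the 9772 symbols at that level.

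**Figure D4:**
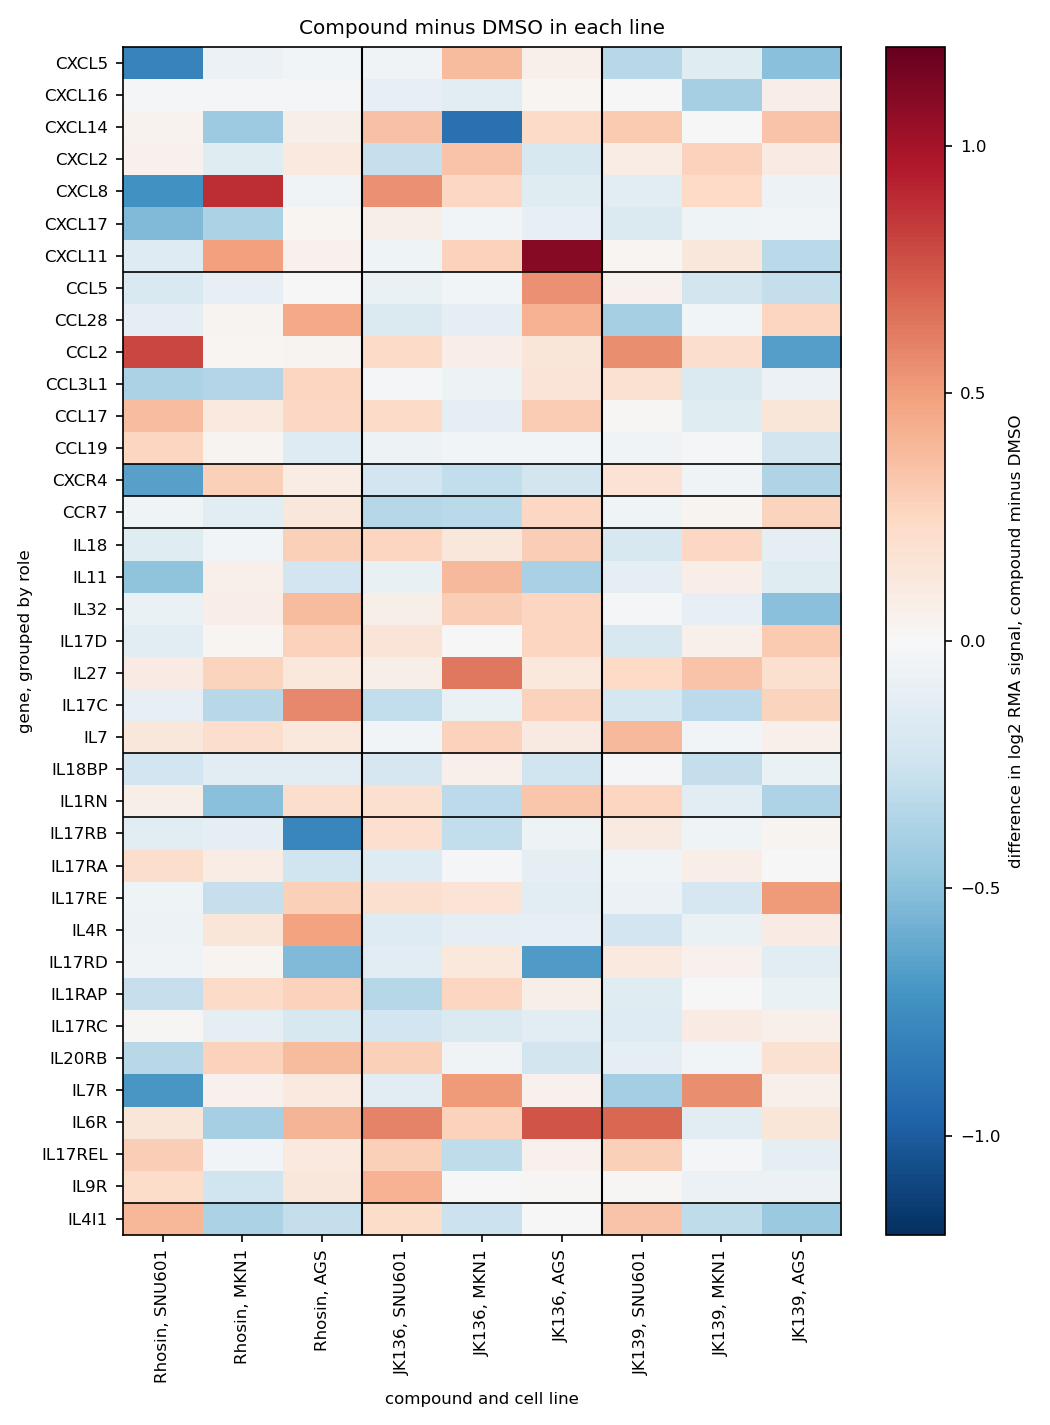
Log2 difference from the DMSO array of the same line for the 37 members at 4.6 or more in a line, as a colour map with 1 row per gene and 1 column per compound and line; red is higher with the compound and blue lower. With each compound most rows hold both colours across the 3 lines. The strongest cells include CXCL11 with JK136 in AGS at 1.10 and CXCL5 with Rhosin in SNU601 at -0.80.

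With Rhosin, the lowest mean difference among members above background was that of IL17RB, at -0.35 ± 0.15 (95% interval -0.66 to -0.034, adjusted p = 0.791). By line it was -0.13 in SNU601, -0.12 in MKN1 and -0.78 in AGS, negative in all 3 and mainly set by AGS. CXCL5 gave -0.30 (95% interval -0.61 to 0.0058), with -0.80 in SNU601, -0.074 in MKN1 and -0.034 in AGS, so that SNU601, where the gene was high, carried most of it. CXCL17 gave -0.30 (95% interval -0.60 to 0.012) and IL11 -0.22 (95% interval -0.52 to 0.084). The highest were CCL2 at 0.28 (95% interval -0.18 to 0.75), CCL17 at 0.24 (95% interval -0.015 to 0.50), IL4R at 0.19 (95% interval -0.032 to 0.41) and IL27 at 0.16 (95% interval -0.12 to 0.45). The CCL2 value came from SNU601, where the gene was far under background (0.80 there, 0.021 in MKN1). CXCL8 with Rhosin differed by -0.72 in SNU601, 0.89 in MKN1 and -0.041 in AGS, of opposite sign in SNU601 and MKN1.

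With JK136, IL6R had the largest mean difference of the members above background, at 0.54 ± 0.17 (95% interval 0.18 to 0.90, adjusted p = 0.9). By line it was 0.59 in SNU601, 0.28 in MKN1 and 0.75 in AGS, higher than DMSO in 3 of 3 lines, and it did not pass after adjustment. CXCL11 gave 0.44 ± 0.23 (95% interval -0.053 to 0.94, adjusted p = 0.937), with -0.049 in SNU601, 0.28 in MKN1 and 1.10 in AGS. CXCL11 counts as above background only through its JK136 array in AGS, so its place in each comparison with JK136 rests on that value. In AGS, CXCL11 read 5.64 with JK136 and 4.54 with DMSO. Its neighbour CXCL10 read 5.18 with JK136 and 3.92 with DMSO. Each is 1 array, without a replicate in that line, and without AGS the mean CXCL11 difference was 0.11. The other high members were IL27 at 0.28 (95% interval -0.0072 to 0.56) and IL18 at 0.23 (95% interval -0.0085 to 0.47), both positive in 3 of 3 lines. The lowest were CXCR4 at -0.25 (95% interval -0.66 to 0.16), IL17RD at -0.23 (95% interval -0.54 to 0.073), IL17RC at -0.18 (95% interval -0.42 to 0.062) and CCR7 at -0.14 (95% interval -0.43 to 0.14). CXCR4 was lower than DMSO by similar amounts in each line, with -0.23 in SNU601, -0.30 in MKN1 and -0.22 in AGS. CXCL14 with JK136 differed by 0.36 in SNU601, -0.89 in MKN1 and 0.23 in AGS, with the low value in MKN1, the line in which the gene was above background.

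With JK139, CXCL5 had the lowest mean difference, at -0.32 ± 0.14 (95% interval -0.63 to -0.016, adjusted p = 1), with -0.33 in SNU601, -0.14 in MKN1 and -0.50 in AGS. It was negative in 3 of 3 lines, as it was with Rhosin, against the same DMSO arrays. IL32 gave -0.20 (95% interval -0.53 to 0.12), with -0.0095 in SNU601, -0.096 in MKN1 and -0.50 in AGS. CCL5 gave -0.15 (95% interval -0.47 to 0.17), with 0.048 in SNU601, -0.22 in MKN1 and -0.28 in AGS. IL4I1 gave -0.14 (95% interval -0.44 to 0.16), with 0.34 in SNU601, -0.30 in MKN1 and -0.45 in AGS. Leaving out an array or a line put the lowest and highest mean difference at -0.36 and -0.0013 for IL32, -0.30 and -0.003 for CCL5 and -0.38 and 0.020 for IL4I1. The highest were IL27 at 0.26 (95% interval -0.024 to 0.54), IL6R at 0.23 (95% interval -0.12 to 0.59), CXCL14 at 0.22 (95% interval -0.19 to 0.62) and CXCL2 at 0.15 (95% interval -0.14 to 0.45). All of these adjusted p-values round to 1.

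Each compound was also set against the others, in 3 pairs. Whether doses and times matched is not known, since the labels do not state them. All 3 pairs called 0 members, with a background of 0% of all symbols in JK136 against Rhosin, 0% in JK139 against Rhosin and 0% in JK139 against JK136. Without adjustment 7, 7 and 10 members had a p under 0.05 (6.60%, 6.60% and 9.43%), against 8.27%, 6.93% and 5.31% of all symbols. For JK136 against Rhosin, the highest differences were IL6R at 0.49 ± 0.17 (95% interval 0.13 to 0.85, adjusted p = 0.445), CXCL5 at 0.44 ± 0.14 (95% interval 0.13 to 0.75, adjusted p = 0.441), IL7R at 0.32 (95% interval -0.076 to 0.71) and, through the same AGS array, CXCL11 at 0.31 (95% interval -0.18 to 0.81). The lowest were IL4R at -0.31 ± 0.103 (95% interval -0.53 to -0.087, adjusted p = 0.441), CXCR4 at -0.16 (95% interval -0.57 to 0.25), CCL2 at -0.13 (95% interval -0.60 to 0.33) and CCR7 at -0.12 (95% interval -0.41 to 0.16). IL6R and CXCL5 were higher with JK136 than with Rhosin in 3 of 3 lines, and IL4R lower in 3 of 3.

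For JK139 against Rhosin, IL17RB was highest at 0.38 ± 0.15 (95% interval 0.066 to 0.69, adjusted p = 0.671), followed by CXCL14 at 0.32 (95% interval -0.080 to 0.73), IL7R at 0.25 (95% interval -0.15 to 0.64) and CXCL17 at 0.21 (95% interval -0.096 to 0.52). IL32 was lowest at -0.33 (95% interval -0.66 to -0.0021), then IL4R at -0.26 (95% interval -0.48 to -0.037), CCL2 at -0.25 (95% interval -0.71 to 0.21) and CCL17 at -0.24 (95% interval -0.50 to 0.020). For JK139 against JK136, CXCL11 gave -0.50 (95% interval -0.99 to -0.0028), again through the 1 AGS array with JK136. Of the other members above background, CXCL5 was lowest at -0.46 ± 0.14 (95% interval -0.77 to -0.15, adjusted p = 0.892), then IL32 at -0.41 (95% interval -0.74 to -0.084) and IL6R at -0.31 (95% interval -0.66 to 0.052). CXCL5 was lower with JK139 than with JK136 in 3 of 3 lines, with -0.29 in SNU601, -0.52 in MKN1 and -0.57 in AGS. The highest were CXCL14 at 0.32 (95% interval -0.086 to 0.72), IL17RD at 0.24 (95% interval -0.062 to 0.55), CCR7 at 0.23 (95% interval -0.059 to 0.51) and CXCL2 at 0.20 (95% interval -0.104 to 0.49). The intervals of these differences reach up to about 1 log2 unit, so a p that misses the threshold does not show that the compounds act alike on these genes.

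Whether lines differed in their response was tested with an F test in limma on the interaction of line with any compound against DMSO. Its error is the spread between compounds. It called 0 of the 106 members, with a background of 0% of all symbols. Without adjustment IL4I1 alone had a p under 0.05 (0.943% of members, against 2.73% of all symbols). Its unadjusted p was 0.0311 and its adjusted p rounds to 1. The mean response of IL4I1 was 0.32 in SNU601, -0.31 in MKN1 and -0.25 in AGS. The next smallest p-values were those of CCL15-CCL14 (0.0545), CCL8 (0.0616), IL21R (0.0749) and IL17C (0.0752). Of these IL17C, the only one above background, had a mean response of -0.20 in SNU601, -0.24 in MKN1 and 0.37 in AGS. The related lists called 0 genes with any compound. The largest difference from DMSO in them was that of LIF with Rhosin, at 0.50 ± 0.13 (adjusted p = 0.546).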

How the data were processed

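RNA of 3 gastric cancer lines under 4 treatments was measured on 12 one-colour Affymetrix Human Gene 2.0 ST arrays. The deposited values are log2 signals made by the authors with RMA and Affymetrix Expression Console, per the submitters' processing notes; versions and settings are not given in the sources used here. RMA subtracts background, brings the arrays to 1 distribution and summarises probes, so values near background are compressed and understate differences there. Nothing was renormalized. Of 53617 clusters, 16098 carried 1 gene symbol in the platform annotation, giving 14884 symbols, with the cluster of highest mean kept for each; all 106 members matched a RefSeq gene (GRCh38.p14) by Entrez ID, and 1 had several clusters.

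limma 3.58.1 in R 4.3.3 was fitted to all symbols, with treatment and line as fixed terms and a trend in the prior variance (6 residual degrees of freedom). No filter on low values was applied, and p-values were adjusted by Benjamini-Hochberg over all symbols. The interaction of line with any compound was tested with an F test. The fit was tested on simulated data. Each line and treatment has 1 array, and nothing in the labels says that arrays came from separate cultures. The p-values for lines therefore measure the spread between arrays only. The treatment term removes treatment effects that the lines share, and that spread includes any that differ between lines. Alternatives covered filters, the prior variance, a second quantile normalization, median centring, the mean of all clusters, array weights, no line term, other thresholds, and leaving out each array, line or treatment.

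The members and gene lists were chosen with earlier results of these data known. Named are every member at 4.6 or more in a line, per-array values of the 20 with the highest line mean, the 4 highest and 4 lowest of each treatment comparison, the 5 highest and 5 lowest of each line comparison, the 5 smallest p-values of the interaction, the 3 members on each side of 4.6, and up to 4 genes of each other list. Further members and receptors were named after their values were seen.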

Additional observations from a re-analysis of the deposited data

Results flagged for a closer look

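Within each line, the 4 arrays of every member above background there were searched for 1 array that stood apart from the other 3 by more than Dixon's 95% critical value for 4 values. Of 87 such sets, 6 had one, and chance gives about 5% of sets. The 4 arrays of a line carry different treatments, so a single array apart can be a treatment or a property of that array, and these cannot be told apart. IL17RB, the receptor chain for interleukins 17B and 25, read 5.792 in AGS with Rhosin, under the 6.516 to 6.612 of the other AGS arrays. IL20RB read 5.584 in MKN1 with Rhosin, above the 5.260 to 5.304 of the other MKN1 arrays. CCR7 read 4.781 in SNU601 with JK136, under 5.069 to 5.124 on the other SNU601 arrays, and CXCL16 read 8.529 on that same array, under 8.615 to 8.629. IL17REL stood apart in 2 lines on arrays of different treatments, at 4.779 in MKN1 with JK136 (other arrays 5.049 to 5.083) and at 4.878 in SNU601 with DMSO (other arrays 5.162 to 5.175).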

How the results depend on the processing

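Of 273 recomputed counts, 266 were within 1.5 times the count reported, and the compounds called 0 members under every alternative run, without the line term included. The 266 include the counts of the compounds and of the interaction, which were 0 in the main fit too. Almost no symbol on the array was called there, so those counts say little about how stable the others are. The counts that moved did so because fewer genes were tested or the level was raised. With symbols under the 40th percentile of mean signal left out, 28 members were tested and 17 were called in MKN1 against AGS (37 without the filter), 11 in SNU601 against AGS (22) and 13 in SNU601 against MKN1 (28). With a line mean of 4.6 required, 23 of 37 were called in MKN1 against AGS; that filter lets a member in through the line where it is high, so nothing is read from this count. At a level of 6.0 in place of 4.6, 10 members were above it in SNU601, 7 in MKN1 and 9 in AGS. Leaving out 1 array or treatment gave 31 to 37 calls in MKN1 against AGS, 18 to 23 in SNU601 against AGS and 25 to 30 in SNU601 against MKN1. Leaving out 1 array or line gave 0 in each treatment comparison. Of 58 called line differences of named members, 51 passed under every alternative in which the member was tested. The 7 that did not were CCL3L1, CXCL17, CXCL2 and IL6R in MKN1 against AGS, CCL5 and CXCL11 in SNU601 against AGS, and CCL5 in SNU601 against MKN1. The filter at the 40th percentile left out CCL2, CCL28, CXCL8, CXCL11, CXCL17, IL1RN, IL7 and IL7R, so their differences were not tested under it. Some uncalled treatment differences changed sign when a line or array was left out; the cause was not tested. These were JK136 against Rhosin for CCL2 (-0.29 to 0.085), CXCR4 (-0.48 to 0.055) and CXCL11 (-0.074 to 0.57), JK139 against Rhosin for CCL2 (-0.47 to 0.057), and JK139 against DMSO for IL4I1 (-0.38 to 0.020). Treatments pair within a line, and the fit holds line as a block; without that block the compounds again called 0 members. Levels under 4.6 were not read as expression, and the number of arrays limits what could be called.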
